A study of Mus musculus with 2 samples.

Results

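The genes that encode the proteasome were examined in chromatin interaction maps of mouse embryonic stem cells (ESCs) with and without Ronin, a DNA-binding transcription factor that is encoded by Thap11. Members were all protein-coding genes of the GENCODE vM1 annotation of mm9 whose symbol begins with Psma, Psmb, Psmc, Psmd, Psme, Psmf or Psmg followed by a digit, which gave 48 genes of 22238. They comprised 19 core particle genes, 20 regulatory particle genes, 4 activators, 1 inhibitor and 4 assembly chaperones, spread over 16 chromosomes.

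The maps were made by ChIA-PET, in which chromatin is immunoprecipitated with an antibody to RNA polymerase II (RNA Pol II), the DNA ends held in one complex are ligated, and each ligated molecule is read as a paired-end tag (PET). Ronin knockout ESCs carried CreERT2 and Roninflox/flox alleles and had received tamoxifen for 4 days, which activates the Cre recombinase. Control ESCs had the same CreERT2 and Roninflox/flox genotype and had received ethanol for 4 days, so that the drug and the deletion cannot be told apart in this comparison. The inducible Cre was placed at the ubiquitously expressed Rosa26 locus, and the cells had been derived from blastocysts and were grown in serum and LIF on gelatine. Each condition was 1 merged table, with no separate replicate, so every interval and every test below compares 2 libraries and covers counting error only.

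A contact is a pair of RNA Pol II peaks, here called anchors, together with the number of PETs that join them. A contact was assigned to a gene when either anchor lay within 1 kb of it, on the same chromosome or between chromosomes. The Ronin knockout table held 44328 contacts with 65276 PETs, and the control table held 128267 contacts with 156097 PETs, so the knockout table had 41.8% of the control PETs. Contacts with at least 10 PETs or on the mitochondrial genome, among them satellite repeats, differed in this respect from the rest: their PETs in Ronin knockout were 78.6% of those in control, while the PETs of all other contacts were 34.7%. Thap11 itself had 46 PETs in Ronin knockout ESCs and 109 in control ESCs, a count of polymerase-bound contacts that does not check the deletion. All 12 pluripotency marker genes examined had PETs, between 5 and 42 in Ronin knockout and between 6 and 194 in control. Their counts over the list came to 272 in Ronin knockout and 837 in control (32.5%, 95% interval 28.2 to 37.3%). That interval lies below the 41.8% of the tables and includes the 34.7% of contacts with under 10 PETs off the mitochondrial genome. Of these 12 genes 1 was called lower, against 2.88% of all genes tested. It was Zfp42, with 37 PETs in Ronin knockout and 194 in control (adjusted p = 0.000189, exact binomial test described below). The 5 primitive endoderm markers summed to 8 PETs in Ronin knockout and 8 in control, and the 6 fibroblast markers had none in either library.

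The proteasome degrades proteins that carry ubiquitin chains. Its core particle is a barrel of outer alpha rings, encoded by Psma genes, around inner beta rings, encoded by Psmb genes, which hold the proteolytic sites. The regulatory particle caps the barrel: its Psmc subunits form a ring of ATPases that unfold substrates, and some of its Psmd subunits bind or remove ubiquitin. Psme proteins are alternative caps that open the barrel without ATP, Psmf1 is an inhibitor, and Psmg proteins chaperone the assembly of the core. These genes are expressed in nearly all cells, and the transcription factor Nfe2l1 raises many of them together when proteasome activity falls.

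In Ronin knockout ESCs 581 contacts with 620 PETs touched a proteasome gene, against 1536 contacts with 1564 PETs in control ESCs. The knockout PETs were therefore 39.6% of the control PETs (95% exact conditional interval 36.1 to 43.5%), close to the 41.8% of the tables as a whole (41.4 to 42.2%). Set against all other contacts, the ratio of these ratios was 0.948 (0.863 to 1.04). After the data were examined, the same ratio was also taken among contacts with under 10 PETs and off the mitochondrial genome, where it was 1.11 (1.01 to 1.22). The first interval includes equality and the second does not, and the direction of the difference depended on whether a few contacts with very many PETs were counted. Proteasome contacts made up 1.31% of the contacts in Ronin knockout and 1.20% of those in control.

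PETs were found at 45 members in Ronin knockout and 46 in control, and at 47 members in one library or the other. Psmb8 had none in either. The median member had 10 PETs in Ronin knockout and 21 in control. Of the 48 members, 43 had fewer PETs after Ronin knockout, a direction shared by 88.9% of all protein-coding genes with PETs, and 4 had more (Psmb11, Psmd9, Psmd10 and Psme1), against a background of 7.26%. With both libraries scaled to equal totals, 28 members were lower and 19 higher in Ronin knockout, where 60.7% and 39.3% of all genes with PETs were lower and higher. Among genes with at least 5 PETs over both libraries, the median scaled log2 ratio (with 1 PET added) was -0.06 over 45 members and -0.20 over all 10752 genes.

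**Figure D1:**
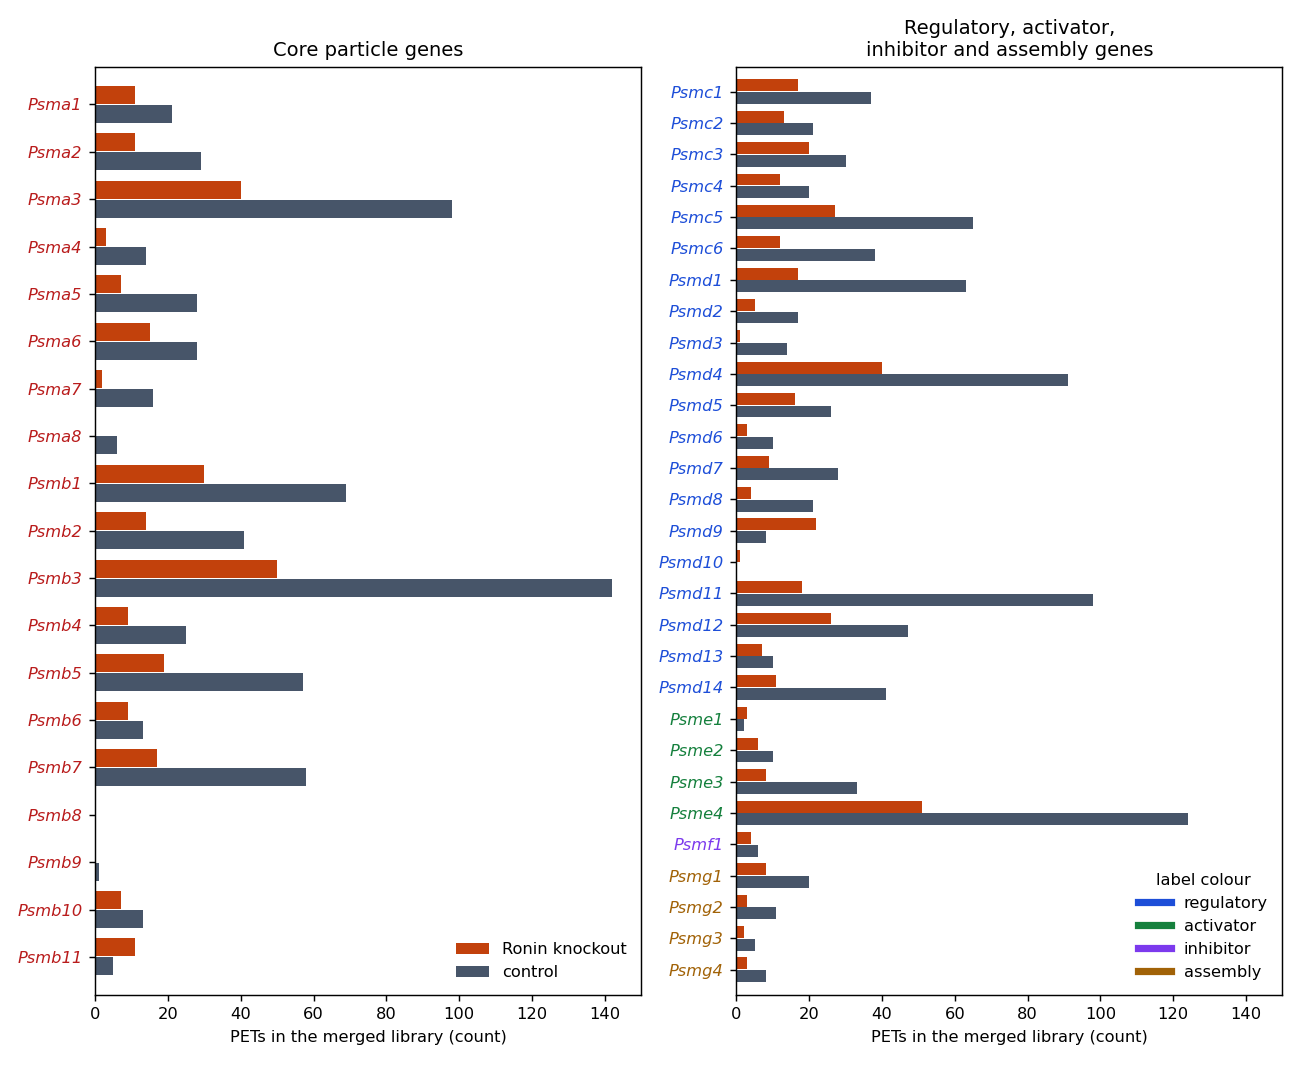
PETs per proteasome gene, with the Ronin knockout library drawn above the control library for each gene and gene names coloured by class. Bars count PETs in contacts with an anchor within 1 kb of the gene; Psmb3 and Psme4 had the most PETs in both libraries, and the knockout bar exceeds the control bar at Psmb11, Psmd9, Psmd10 and Psme1.

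The core particle genes together had 254 PETs in Ronin knockout and 664 in control, or 38.3% (33.0 to 44.3%). Regulatory particle genes had 281 in Ronin knockout and 685 in control, or 41.0% (35.6 to 47.2%). The 4 activators had 68 in Ronin knockout and 169 in control, or 40.2% (29.9 to 53.6%). No difference between these classes was resolved at this depth: the ratio of ratios was 0.932 for core over regulatory (0.758 to 1.145), 1.05 for activator over core (0.754 to 1.46) and 0.981 for activator over regulatory (0.705 to 1.355). Within the core, alpha ring genes had 37.1% of their control PETs and beta ring genes 39.2%, and their ratio of ratios was 0.942 (0.686 to 1.29). Within the regulatory particle the Psmc ATPases had 101 PETs in Ronin knockout and 211 in control (47.9%), and the Psmd genes 180 in Ronin knockout and 474 in control (38.0%), with a ratio of ratios of 1.26 (0.929 to 1.705). The regulatory and Psmd counts include 1 contact between chromosomes at the 3' end of Psmd9, with 20 PETs in Ronin knockout and 2 in control. This contact raises the knockout percentage of both sets, and the ratio of Psmc to Psmd was not taken without it. The assembly chaperones had 16 PETs in Ronin knockout and 44 in control, or 36.4% (19.15 to 65.7%).

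**Figure D2:**
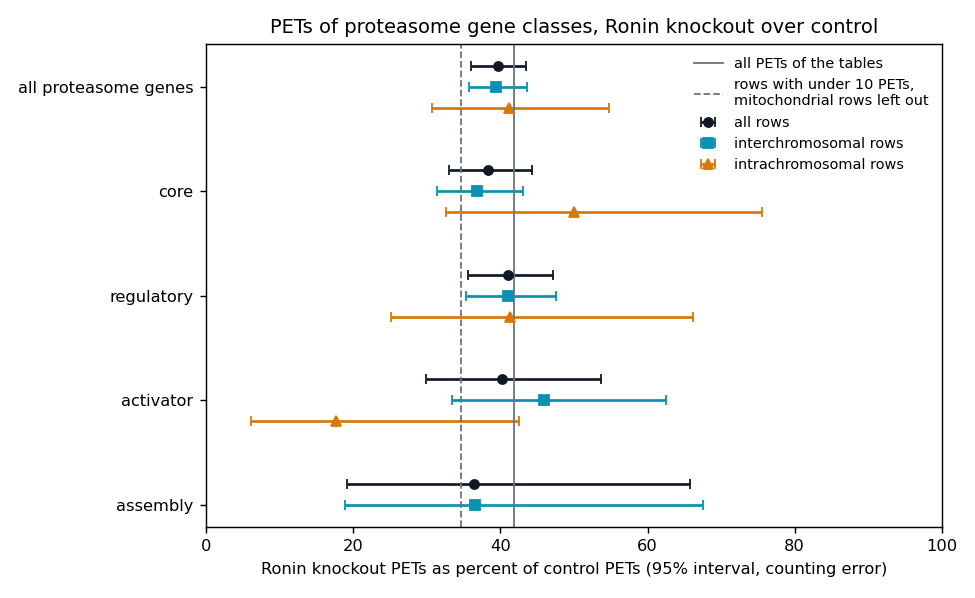
Ronin knockout PETs as a percent of control PETs for each class of proteasome genes, over all contacts (circles), contacts between chromosomes (squares) and contacts within a chromosome (triangles; not drawn for assembly genes, which had 1 such PET in Ronin knockout and 3 in control). Bars are 95% exact intervals for counting error; the solid line marks 41.8% for all PETs of the tables and the dashed line 34.7% for contacts with under 10 PETs off the mitochondrial genome, and the intervals of all classes over all contacts include both lines except that of the regulatory genes, whose lower bound is 35.6%, and that of all proteasome genes, whose lower bound is 36.1%.

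Among the alpha ring genes, Psma3 had the most PETs, 40 in Ronin knockout and 98 in control. Its anchor was 53.5 kb wide in both libraries and also lay at Arid4a, so the PETs belong to a neighborhood and not to Psma3 alone. Psma6 had 15 PETs in Ronin knockout and 28 in control. Psma2 had 11 in Ronin knockout and 29 in control. Psma1 had 11 in Ronin knockout and 21 in control. Each of these structural subunits of the outer ring had between 37.9% and 53.6% of its control count, with intervals that all included the 41.8% of the tables. Psma5 had 7 PETs in Ronin knockout and 28 in control. Psma4 had 3 in Ronin knockout and 14 in control. Psma7 had 2 in Ronin knockout and 16 in control, the lowest percentage (12.5%, 1.39 to 53.2%) among alpha ring genes with PETs in both libraries. Psma8, a testis-specific alpha subunit, had 0 PETs in Ronin knockout and 6 in control, which allows a ratio of up to 84.9%.

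The catalytic beta subunits of the standard proteasome are Psmb5, Psmb6 and Psmb7. Psmb5, the chymotrypsin-like subunit, had 19 PETs in Ronin knockout and 57 in control (33.3%, 18.7 to 56.9%). Psmb7, the trypsin-like subunit, had 17 in Ronin knockout and 58 in control (29.3%, 16.0 to 51.0%). Psmb6, the caspase-like subunit, had 9 in Ronin knockout and 13 in control (69.2%, 26.1 to 175%). All of these intervals overlap. Psmb3, a structural beta subunit, had the most PETs of any member in control: 50 in Ronin knockout and 142 in control (35.2%, 25.0 to 48.9%). Its single anchor was 67.8 kb wide in Ronin knockout and 67.0 kb in control and also covered Cisd3, Mllt6, Pcgf2 and Pip4k2b. Among the other structural subunits, Psmb1 had 30 PETs in Ronin knockout and 69 in control. Psmb2 had 14 in Ronin knockout and 41 in control. Psmb4 had 9 in Ronin knockout and 25 in control. These subunits, too, lay between 34.15% and 43.48% of control.

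The remaining beta subunits replace the standard catalytic ones in particular tissues. Psmb8, Psmb9 and Psmb10 form the interferon-induced immunoproteasome, and Psmb11 forms the thymoproteasome of the thymic cortex. Psmb8 had no PET, Psmb9 had 0 in Ronin knockout and 1 in control, and Psmb10 had 7 in Ronin knockout and 13 in control under an anchor shared with Ctrl, Lcat, Pskh1 and Slc12a4. Psmb11 had 11 PETs in Ronin knockout and 5 in control, and its anchor was 33.2 kb wide in Ronin knockout, extending from Psmb11 over Cdh24 to Acin1, against 4.95 kb in control. No anchor in either library lay within 1 kb of the Psmb11 start. With Psma8, these 5 tissue-specific core genes summed to 18 PETs in Ronin knockout and 25 in control (72.0%, 37.0 to 137%).

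The regulatory particle ATPases all had fewer PETs in Ronin knockout. Psmc5 had the most of them, 27 in Ronin knockout and 65 in control. Psmc3 had 20 PETs in Ronin knockout and 30 in control. Psmc1 had 17 in Ronin knockout and 37 in control. The ring is completed by Psmc2, Psmc4 and Psmc6. Psmc2 had 13 PETs in Ronin knockout and 21 in control. Psmc4 had 12 in Ronin knockout and 20 in control. Psmc6 had 12 in Ronin knockout and 38 in control, the lowest percentage of the ATPases (31.6%, 15.02 to 61.7%), against the highest of 66.7% (35.9 to 121%) at Psmc3.

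Of the subunits that handle ubiquitin, Psmd4, a ubiquitin receptor, had 40 PETs in Ronin knockout and 91 in control. Its anchor reached 65.4 kb in Ronin knockout and covered the Psmd4 start, Pi4kb and Zfp687, whereas in control the peak was split near the 3' end of the gene into an anchor of 66.0 kb with 75 PETs and one of 12.7 kb over the gene start with 16 PETs. Psmd14, the deubiquitinase of the regulatory particle, had 11 PETs in Ronin knockout and 41 in control. Psmd1 and Psmd2 are the large scaffold subunits of the base. Psmd1 had 17 PETs in Ronin knockout and 63 in control, and Psmd2 had 5 in Ronin knockout and 17 in control. These genes lay between 26.8% and 43.96% of control, within their counting error of the tables as a whole.

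The lid of the regulatory particle, to which Psmd14 belongs, also holds Psmd3, Psmd6, Psmd7, Psmd8, Psmd11, Psmd12 and Psmd13. Psmd12 had 26 PETs in Ronin knockout and 47 in control. Of these, 16 in Ronin knockout and 25 in control were at an anchor just downstream of the gene. With anchors overlapping the gene itself, Psmd12 had 10 PETs in Ronin knockout and 22 in control. Psmd7 had 9 in Ronin knockout and 28 in control. Psmd13 had 7 in Ronin knockout and 10 in control. The smaller counts were those of Psmd8, Psmd6 and Psmd3. Psmd8 had 4 PETs in Ronin knockout and 21 in control. Psmd6 had 3 in Ronin knockout and 10 in control. Psmd3 had 1 in Ronin knockout and 14 in control, and its ratio of 7.14% spanned 0.169 to 46.95%.

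Psmd11, which in human embryonic stem cells is linked to their high proteasome activity, had 18 PETs in Ronin knockout and 98 in control (18.4%, 10.45 to 30.6%). Its anchor at the gene start (chr11:80240731-80258080 in Ronin knockout) had 9 PETs in Ronin knockout and 47 in control. The anchors downstream in the gene had 1 to 4 PETs each in Ronin knockout and 8 to 17 each in control, so fewer PETs were seen along the whole gene. No contact of Psmd11 had more than 1 PET in either library.

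Psmd5, Psmd9 and Psmd10 encode chaperones that help assemble the base of the regulatory particle and leave the finished particle. Psmd5 had 16 PETs in Ronin knockout and 26 in control. Psmd10 had 1 in Ronin knockout and 0 in control. Psmd9 had 22 PETs in Ronin knockout and 8 in control, but 20 of the 22 came from 1 contact between chromosomes, which joined an anchor at the 3' end of Psmd9 and Wdr66 (chr5:123699608-123702162) to an anchor at Cherp, Slc35e1 and Med26 (chr8:74996184-75027184). The corresponding contact had 2 PETs in control. At the Psmd9 start itself an anchor with 3 PETs was present in control and none in Ronin knockout. The anchors of this contact share an identical stretch of 98 bases in mm9, and its part in the count was not tested. Without the contact with the most PETs in each library, Psmd9 had 2 PETs in Ronin knockout and 6 in control.

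Among the activators, Psme4, the large nuclear cap, had the second highest count in control and the highest in Ronin knockout, with 51 PETs in Ronin knockout and 124 in control (41.1%, 29.1 to 57.4%). The anchor over its start, 55.8 kb wide in Ronin knockout, had 34 PETs in Ronin knockout and 88 in control. Psme3, the other nuclear activator, had 8 PETs in Ronin knockout and 33 in control. Psme1 and Psme2 encode the interferon-induced cap and lie 5.91 kb apart on chromosome 14. Psme1 had 3 PETs in Ronin knockout and 2 in control, and Psme2 had 6 in Ronin knockout and 10 in control. Within chromosomes the activators had 6 PETs in Ronin knockout and 34 in control (17.6%, 6.06 to 42.5%), and between chromosomes 62 in Ronin knockout and 135 in control (45.9%, 33.4 to 62.5%). Over all contacts within chromosomes the knockout PETs were 49.2% of the control PETs (48.2 to 50.3%), above the activators, while core genes were at 50% (32.6 to 75.6%). That 49.2% includes contacts with many PETs: 12140 PETs in 5037 contacts in Ronin knockout and 24663 PETs in 12330 contacts in control. Every activator contact within a chromosome had 1 PET, so the 2 percentages are not of like contacts. All 6 of the knockout PETs within chromosomes, and 25 of the 34 in control, were at Psme4.

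The inhibitor Psmf1 had 4 PETs in Ronin knockout and 6 in control. Of the assembly chaperones, Psmg1 had 8 PETs in Ronin knockout and 20 in control. Psmg2 had 3 in Ronin knockout and 11 in control. Psmg4 had 3 in Ronin knockout and 8 in control. Psmg3 had 2 in Ronin knockout and 5 in control. All 4 chaperones of the core had fewer PETs in Ronin knockout, between 27.3% and 40.0% of control.

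Single genes were tested by an exact two-sided binomial test against the knockout share of all PETs (29.5%), with Benjamini-Hochberg adjustment over 10752 genes. Of the 45 members tested, 1 was called lower and 2 were called higher in Ronin knockout, against 2.88% and 2.44% of all genes tested. Psmd11 was lower (adjusted p = 0.0176, exact binomial test). Psmd9 was higher (adjusted p = 6.01e-05, exact binomial test), and so was Psmb11 (adjusted p = 0.0299, exact binomial test). None of these calls held under all alternatives. With contacts within chromosomes only, Psmd11 had 5 PETs in Ronin knockout and 18 in control and was not called (adjusted p = 1.0, exact binomial test), and Psmd9 and Psmb11 had too few PETs to be tested. The Psmd11 call was also lost when the knockout share was taken from contacts with under 10 PETs off the mitochondrial genome, an alternative chosen after the data were examined (adjusted p = 0.147, exact binomial test). The Psmb11 call was lost against the knockout share of PETs within chromosomes (adjusted p = 0.0509, exact binomial test). Neither Psmd9 nor Psmb11 could be tested when only anchors within 1 kb of a gene start were used, as Psmd9 then had 0 PETs in Ronin knockout and 3 in control and Psmb11 had none. With those anchors, also chosen after the data were examined, Psmd4 was called higher instead, with 40 PETs in Ronin knockout and 16 in control, since the larger of its control anchors ends short of the start. Tested without scaling, against equal counts in the 2 libraries, 25 members were lower in Ronin knockout and 1, Psmd9, was higher, where 52.3% and 0.93% of all genes tested were called.

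Most proteasome contacts rested on a single PET, 97.8% of the 581 contacts in Ronin knockout and 98.7% of the 1536 in control. The study required 3 independent PETs for a high-confidence interaction, so most contacts counted here lie below its threshold. For Ronin, the study also left interactions between chromosomes out of its later analyses because they are noisier. Contacts within a chromosome made up 11.7% of them in Ronin knockout (9.20 to 14.6%, exact binomial) and 10.6% in control (9.12 to 12.3%). All other contacts of the tables had 11.4% within a chromosome in Ronin knockout and 9.60% in control. Within chromosomes, the median gap between the anchors was 3.55 Mb in Ronin knockout and 9.19 Mb in control, and 33 of 68 contacts in Ronin knockout and 63 of 163 in control were under 1 Mb. The other contacts of the tables differed in the same way, with a median gap of 4.55 Mb in Ronin knockout and 10.3 Mb in control, and 2117 of 4969 in Ronin knockout and 4466 of 12167 in control under 1 Mb. The partner anchor lay within 1 kb of the start of another protein-coding gene at 74.7% of 572 partner ends in Ronin knockout (70.9 to 78.2%) and at 71.9% of 1517 in control (69.5 to 74.1%). The same share over the ends of all other contacts was 74.4% in Ronin knockout and 71.4% in control, so the partners of proteasome genes were at gene starts about as often as those of other contacts.

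In Ronin knockout 4 contacts joined 2 different proteasome genes, all between chromosomes and all with 1 PET: Psmb5 with Psmd8, Psma5 with Psmb2, Psmb3 with Psmc2, and Psma3 with Psmc3. In control 4 contacts did so, also with 1 PET each: Psmd2 with Psmg1, Psmb4 with Psmd4, Psmd5 with Psmb4, and Psmb11 with Psmd4. No such pair was seen in both libraries. The Psmb4 and Psmd4 genes lie 146 kb apart on chromosome 3, and the other members that are close neighbors (Psmb5 and Psmb11, Psme1 and Psme2, Psmb8 and Psmb9) were not joined. Contacts between anchors of the same member numbered 5 in Ronin knockout and 15 in control.

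Contacts with more than 1 PET were few, and most joined different chromosomes. After the Psmd9 contact, the largest joined an anchor just downstream of Psmd12 (chr11:107365999-107375053) to one at Mrps21 and Prpf3 on chromosome 3, with 8 PETs in Ronin knockout and 7 in control. These anchors share an identical stretch of 78 bases. Contacts with 3 PETs in control joined Psmd1 with Spen and Fblim1, Psmb7 with Hat1, and Psmb3 with its neighbor E130012A19Rik 17.0 kb away. The last of these had 2 PETs in Ronin knockout. Psmd14 with Dhx57 and Morn2, and Psmb1 with Wdr91, had 3 PETs each in Ronin knockout. The longest identical stretch was 104 bases between the anchors of Psmb1 and Wdr91, 124 bases for Psmb7 and Hat1, 48 for Psmd1 and Spen, 39 for Psmb3 and E130012A19Rik, and 23 for Psmd14 and Dhx57. Over all proteasome contacts, 23 of 581 in Ronin knockout and 26 of 1536 in control linked anchors holding the same run of 100 or more bases in mm9, as repeats do, and their part in the counts was not tested beyond leaving them out, which gave 38.6% of control PETs (35.0 to 42.4%). The large Psmd9 and Psmd12 contacts, with 98 and 78 identical bases, fell under that length and were not left out.

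Few contacts recurred between the libraries. Of the control contacts 29 (1.89%, 1.27 to 2.70%) had a counterpart in Ronin knockout, and of the Ronin knockout contacts 31 (5.34%, 3.65 to 7.49%) had one in control. All other contacts recurred at 3.91% for Ronin knockout contacts and 1.35% for control contacts. Recurring contacts included Psma3 with Pecr, Psmb1 with Chd1, Psmd4 with Pip5k1a, and Psmd11 with Zfp207. A satellite repeat anchor on chromosome 2 at Gm10800 was linked to 3 members in Ronin knockout (3 PETs) and to 9 in control (13 PETs).

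Promoter sequence was then read in mm9 from 250 bases before to 50 bases after each gene start, on both strands. The Ronin-binding motif, a sequence of 15 bases taken from the study, had no exact match in the window of any of the 48 members, and one in 206 of 22380 protein-coding gene records (0.92%). With 1 mismatch allowed, a search added after the data were examined, it was matched at Psma2, Psmd10 and Psmd11, or 6.25% of members against 2.30% of all records. With 2 mismatches allowed, Psmc4 and Psmd4 were added (10.4% against 3.43%). The matches with 1 mismatch are printed because Psmd11 was the member called lower in Ronin knockout, a call that did not hold under all alternatives. Psma2, with 37.9% of its control PETs, was not called. Psmd10, with 1 PET in Ronin knockout and 0 in control, had too few PETs to be tested. A link between these matches and the counts was not tested. Each line reads 5′ to 3′ on the strand of the gene in mm9, with the 15 bases of the match in capitals; a match is a description of letters and not of binding.
Psmd11, chr11:80242025-80242069, plus strand: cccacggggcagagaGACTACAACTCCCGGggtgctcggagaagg
Psma2, chr13:14705404-14705448, plus strand: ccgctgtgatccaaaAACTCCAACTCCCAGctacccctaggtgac
Psmd10, chrX:137491409-137491453, minus strand: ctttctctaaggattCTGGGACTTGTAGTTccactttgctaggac
Psmd10, chrX:137491329-137491373, minus strand: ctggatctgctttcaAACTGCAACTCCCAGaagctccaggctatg

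The Psmd11 match begins 77 bases upstream of the gene start and the Psma2 match 102 bases upstream, and both run against the direction of the gene. Psmd10 had matches in both directions, beginning 171 and 91 bases upstream. Across the whole anchors of proteasome genes, 87 in Ronin knockout and 115 in control, the exact motif occurred in 1 anchor, that over the start of Psme4, in both libraries. This copy lies 17.9 kb upstream of the Psme4 start, and is printed on the strand of the motif.
Psme4 anchor, chr11:30653790-30653834, plus strand: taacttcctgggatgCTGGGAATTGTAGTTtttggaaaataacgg

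Nfe2l1 and its relative Nfe2l2 bind the antioxidant response element, whose core was searched on both strands as TGACNNNGC, together with its variant TGAGNNNGC. The core matched 7 members (14.6% of 48, against 12.5% of all records) and the variant 13 (27.1%, against 17.8%). One or the other was present at 16 members (33.3%, against 28.0%), in core genes such as Psmb5 and in regulatory genes such as Psmd12. The core matches nearest to the start that lie wholly upstream of it, at Psmb5, Psmb6 and Psmd9, and that of Psmd12 are printed, with the matched bases in capitals, because they include catalytic subunits and 1 member called higher.
Psmb5, chr14:55236852-55236911, minus strand: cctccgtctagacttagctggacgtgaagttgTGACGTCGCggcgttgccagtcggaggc
Psmb6, chr11:70338809-70338868, plus strand: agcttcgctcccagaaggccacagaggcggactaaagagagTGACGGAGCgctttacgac
Psmd9, chr5:123678139-123678198, plus strand: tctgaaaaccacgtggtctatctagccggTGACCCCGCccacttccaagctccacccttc
Psmd12, chr11:107340575-107340634, plus strand: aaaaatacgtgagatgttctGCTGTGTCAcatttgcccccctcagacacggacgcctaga

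**Figure D3:**
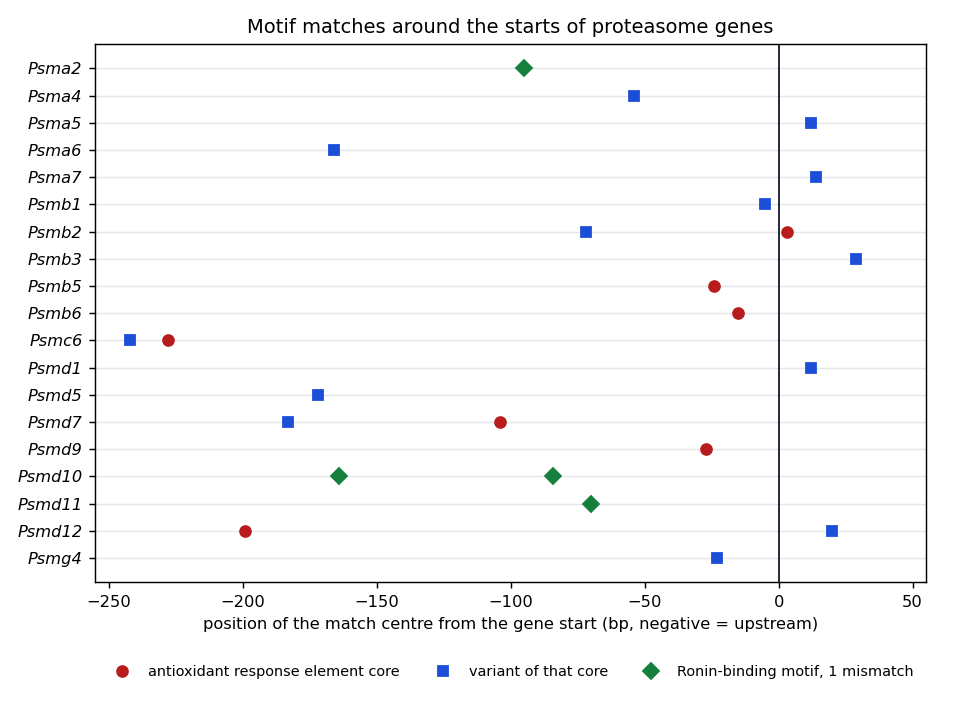
Positions of motif matches from 250 bases before to 50 bases after the starts of proteasome genes (horizontal axis, bases from the gene start), 1 line per gene with a match. Circles are the antioxidant response element core, squares its variant and diamonds the Ronin-binding motif with 1 mismatch; the circles of Psmb5, Psmb6 and Psmd9 lie within 31 bases of the start.

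At Psmb5, Psmb6 and Psmd9 the core began 28, 19 and 31 bases upstream of the gene start. Psmb5 had 33.3% and Psmb6 69.2% of its control PETs in Ronin knockout. The higher count of Psmd9 came from the anchor at its 3' end, and at its start, where this match lies, it had 0 PETs in Ronin knockout and 3 in control. Psmd12, whose core lies 203 bases upstream on the opposite strand, had 55.3% over all its anchors (32.9 to 91.2%). With anchors at its start only, where this match lies, it had 4 PETs in Ronin knockout and 11 in control (36.4%).

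Other genes of the ubiquitin-proteasome pathway were examined as a list, which was chosen with earlier results of these data known, so its calls are description only. Of 30 genes, 29 were matched to the annotation and all 29 had PETs, with 736 in Ronin knockout and 2003 in control (36.7%, 33.7 to 40.0%), an interval that lies below the 41.8% of the tables and includes the 34.7% of contacts with under 10 PETs off the mitochondrial genome. PETs were fewer in Ronin knockout at 28 of them and equal at 1. In the scaled test 2 fell and none rose, against the same 2.88% and 2.44% of all genes. Nfe2l1, the activator of proteasome genes, fell to 34 PETs in Ronin knockout, against 143 in control (23.8%, adjusted p = 0.0436, exact binomial test). Ube3a, a ubiquitin ligase that binds the proteasome, fell to 11 in Ronin knockout, against 74 in control (14.9%, adjusted p = 0.0134, exact binomial test). Neither of these calls was examined under the alternatives applied to members, where no member call held under all of them. There the Psmd11 call, with a lower adjusted p than Nfe2l1, was lost against the share of contacts with under 10 PETs off the mitochondrial genome. Among genes that were not called, Nfe2l2 had 81 PETs in Ronin knockout and 207 in control. Pomp, which encodes the maturation chaperone of the core, had 5 in Ronin knockout and 24 in control. Vcp, the ATPase that extracts ubiquitinated proteins, had 32 in Ronin knockout and 59 in control. Ubqln4, a shuttle factor, had the most PETs of the list in Ronin knockout, with 98 in Ronin knockout and 170 in control.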

How the data were processed

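RNA Pol II ChIA-PET tables of mouse ESCs, 1 per condition, were used as deposited. Linkers were removed by the authors (cutadapt), reads aligned to mm9 (Bowtie 1.1.1) and peaks called (MACS 1.4.2). PETs under 4 kb were dropped, 2 experiments per condition were merged, and raw PET counts for each pair of peaks were deposited. The deposited signed distance is a score in bp and was replaced by gaps computed from the anchors; the deposited p-values, from a hypergeometric test by the authors, were used as 1 alternative filter only. Merging hides replicate spread, and wide peaks share PETs among neighboring genes.

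Anchors were assigned to GENCODE vM1 genes within 1 kb, each contact counting once per class. Ratios have 95% exact conditional intervals, except the comparison with all other contacts (normal approximation on the log scale). Genes with at least 5 PETs were tested (scipy 1.17.1, adjusted p under 0.05), and the test was checked on simulated counts. Motifs were read from the mm9 genome with pysam 0.24.0. A contact recurred when both of its anchors overlapped (1 bp or more) those of a contact in the other library. Members and lists were chosen with earlier results of these data known. Named genes were all members with at least 5 PETs, called members, contacts joining 2 members and the larger contacts with at least 2 PETs; other pathway genes are summarised with examples. The alternatives are given in the closing section.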

Additional observations from a re-analysis of the deposited data

How the results depend on the processing

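No paired analysis was possible because each condition is 1 merged library. The PET ratios of all proteasome, core, regulatory and activator genes stayed within their main 95% intervals under most alternatives. With contacts within a chromosome only, core genes were at 50% and activators at 17.6% of control, where all such contacts, including those with many PETs, were at 49.2%. With contacts of at least 2 PETs only, all proteasome genes were at 108.3% and regulatory genes at 227.8%. These rested on 52 PETs in Ronin knockout, 20 of them in the Psmd9 contact, and 48 in control in all. Only 16 members then had PETs, and 9 of these had fewer in Ronin knockout. Scaled to equal totals of all PETs, of PETs within chromosomes and, added after the data were examined, of contacts with under 10 PETs off the mitochondrial genome, the proteasome ratio was 94.8%, 80.5% and 114.2%. Each scaling was applied to all proteasome PETs, so the last 2 values set all contacts against a part. Within chromosomes on both sides, proteasome genes were at 41.2% and all contacts at 49.2% of control. With under 10 PETs on both sides, the ratio of ratios was 1.11. Unscaled, 5623 genes were called lower and 100 higher, with 25 and 1 members. Against the share of PETs within chromosomes, 882 genes were lower and 1 member was higher. With contacts within chromosomes only, 18 genes were lower and 33 higher, with 0 members in either direction. Against the share of contacts with under 10 PETs, 114 genes and 0 members were lower. With anchors at gene starts, 1 member was called higher. The Ronin-binding motif had 3 members with up to 1 mismatch and 5 with up to 2. Psmd9 fell below its expected share with anchors at gene starts (0% of control) and without its largest contact (33.3%), as did Psmb11 without anchors over 30 kb (0%). For single members, 322 values under alternatives lay within their main intervals, 36 did not, and the 3 just named are called members that changed direction. Members that were not called also moved across the percentage of the tables or equal counts, among them Psmd4 (250% with anchors at gene starts) and, with contacts of at least 2 PETs, Psmc5 (200%) and Psmd12 (111.1%). Depth limits single genes most, since the median member had 10 PETs in Ronin knockout and 21 in control.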
